A study of Mus musculus with 6 samples.

Results

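The genes described here are the 9 at the entry to the cell division cycle: the D-type cyclins CCND1, CCND2 and CCND3, the kinases CDK4, CDK6 and CDK2, the retinoblastoma gene RB1, the transcription factor E2F1 and MYC. They were taken by symbol from the FPKM table of the series, where all 9 had a row among 16191 rows in all. FPKM counts fragments relative to the length of the gene and to all mapped fragments, so levels can be compared between genes. According to the labels, 3 libraries came from RPE-choroids of C57BL/6J mice given AAV-PDGF-D, and 3 from RPE-choroids of C57BL/6J mice given AAV-GFP. All were taken 4 weeks after subretinal injection. Per the methods, the AAV-PDGF-D vector carries the coding sequence of human PDGFD under the human VMD2 promoter, which is active in the retinal pigment epithelium (RPE), and AAV-GFP was its control. Mice were 6 to 8 weeks old when purchased. Whether the 3 libraries with one label are from different mice is not stated. The p-values weigh the difference between the labels against the scatter of these libraries, and may not extend to other mice.

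The rows of the table carry human Ensembl IDs and human symbols, although the labels name mouse tissue. Of the 16191 rows, 15504 had such an ID and 687 were named as new human genes. The human PDGFD row, which the vector should raise, was at 5.24, 6.28 and 6.36 FPKM in the libraries labelled AAV-PDGF-D and at 6.87, 6.56 and 6.86 FPKM in those labelled AAV-GFP. Its level was thus not higher with the label AAV-PDGF-D (log2 fold change -0.18, adjusted p = 0.213 from limma), and the groups are called by their labels throughout. The table holds no counts, so the depth of each library is unknown. No 2 libraries held identical values.

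Growth factors act on resting cells in the first gap phase of the cycle, G1. Signals from receptor kinases raise D-type cyclins, which bind CDK4 or CDK6, and these kinases phosphorylate the RB1 protein. Phosphorylated RB1 releases E2F factors, which switch on genes for DNA synthesis, cyclin E among them, and cyclin E then works with CDK2. MYC is a transcription factor that growth factors induce early and that drives genes of growth. Cells of the adult retinal pigment epithelium normally rest outside the cycle.

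Of the 9 genes, E2F1 rose in the libraries labelled AAV-PDGF-D and none fell. To be called, a row needed an adjusted p no higher than 0.1, a change of 1.5-fold or more on the log2(FPKM + 0.1) scale and a mean of 1 FPKM or more, a level that all 9 genes reached. One call higher among 9 genes stands beside 2.01% of the 11444 rows that reached this mean. At the adjusted p alone, 4 of 9 genes were higher (CCND1, CCND3, CDK6 and E2F1) and 0 lower, beside 20.9% of rows higher and 11.7% lower by limma. At an unadjusted p under 0.05 there were 5 higher, CDK2 being the fifth, and 0 lower, beside 24.5% of rows higher and 14.2% lower. In the same 4 genes all 3 libraries labelled AAV-PDGF-D lay above all 3 labelled AAV-GFP, which held for 27.3% of rows, and in 0 of 9 they lay below, against 16.4% of rows. The median log2 fold change was 0.23 over the 9 genes and 0.04 over all rows that could be called.

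**Figure D1:**
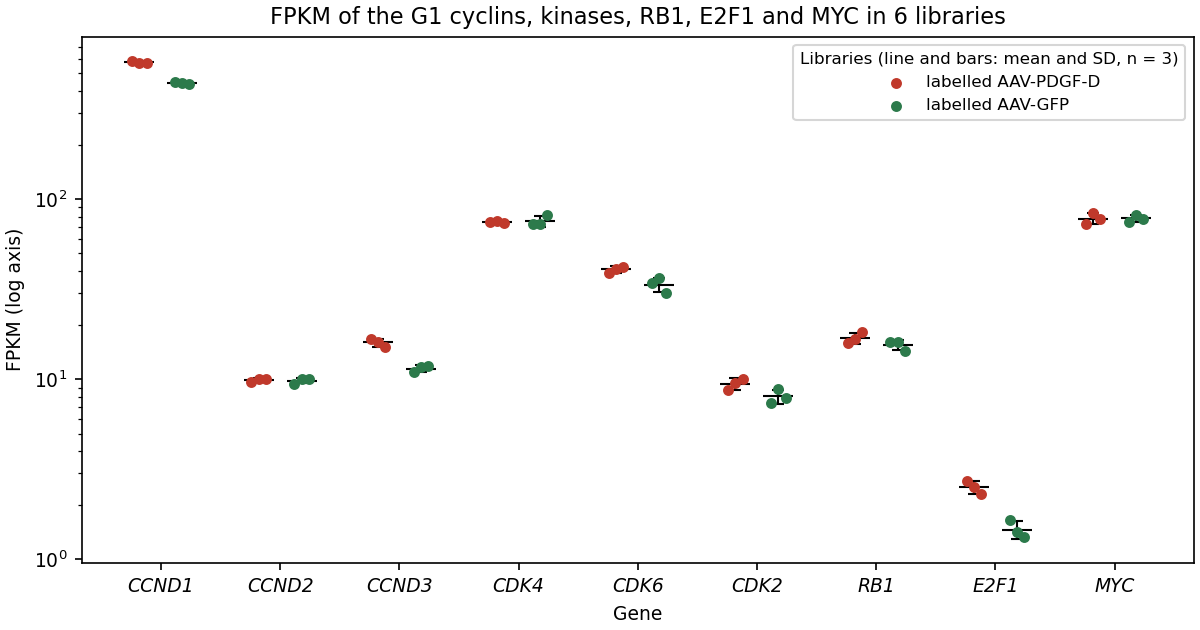
FPKM of each gene (log axis) in the 3 libraries labelled AAV-PDGF-D (red, left) and the 3 labelled AAV-GFP (green, right), with the mean and SD as line and bars. CCND1 stands far above the other genes, and the groups lie apart for CCND1, CCND3, CDK6 and E2F1.

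Among the D-type cyclins, CCND1 and CCND3 were higher and CCND2 was nearly level. CCND1, the cyclin most often raised by growth factors, was at 587, 567 and 566 FPKM in the libraries labelled AAV-PDGF-D, against 446, 439.7 and 436 FPKM in those labelled AAV-GFP. The groups did not overlap, and the gap between them was wider than the range within either. CCND1 averaged 574 ± 11.7 FPKM with the label AAV-PDGF-D and 441 ± 4.72 FPKM with the label AAV-GFP (SD, n = 3 each). Its fold change of 1.30 (95% interval 1.22 to 1.38, adjusted p = 0.00137 from limma) was below the 1.5-fold needed for a call. CCND3, the D cyclin best known from blood cells, was at 16.7, 16.1 and 15.1 FPKM with the label AAV-PDGF-D, against 10.9, 11.6 and 11.8 FPKM with the label AAV-GFP. Here too all libraries of one label lay above all of the other. The CCND3 fold change was 1.39 (95% interval 1.25 to 1.55, adjusted p = 0.00376 from limma), so the interval holds 1.5-fold but the estimate lies under it. CCND2, the third member of the family, was at 9.60, 9.99 and 10.07 FPKM with the label AAV-PDGF-D and at 9.46, 10.01 and 10.04 FPKM with the label AAV-GFP. Its groups overlapped almost completely, with a fold change of 1.01 (95% interval 0.906 to 1.12, adjusted p = 0.953 from limma).

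CCND1 made up nearly all of the D cyclin signal. The FPKM of the 3 D cyclins summed to between 592 and 614 in the libraries labelled AAV-PDGF-D and to between 458 and 466 in those labelled AAV-GFP. The CCND1 share of this sum was 95.7%, 95.6% and 95.7% with the label AAV-PDGF-D, and 95.6%, 95.3% and 95.2% with the label AAV-GFP. These shares overlapped between the labels and differed by 0.293 percentage points (p = 0.2, two-sided exact permutation test), where 0.1 is the smallest p that 3 against 3 libraries allow. A difference in the mix of D cyclin transcripts was not shown.

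Of the kinases, CDK6 was higher, while CDK4 was level and CDK2 missed the threshold. CDK4, a partner of the D cyclins, was at 75.1, 75.8 and 73.6 FPKM with the label AAV-PDGF-D, against 72.4, 72.3 and 81.2 FPKM with the label AAV-GFP. The groups overlapped, and the 95% interval of the CDK4 fold change ran from 0.911 to 1.09 (adjusted p = 0.947 from limma). CDK6, the other partner of the D cyclins, was at 38.9, 41.1 and 42.1 FPKM with the label AAV-PDGF-D, against 34.0, 36.3 and 30.2 FPKM with the label AAV-GFP. All 3 libraries labelled AAV-PDGF-D were above, by a fold change of 1.22 (95% interval 1.08 to 1.37, adjusted p = 0.030 from limma). When the pair of libraries with hemoglobin described below was left out, leaving 2 against 2, CDK6 no longer passed the adjusted p (0.164 from limma), while its log2 fold change was 0.27, against 0.28 over all libraries. CDK2, the kinase of cyclin E and cyclin A, was at 8.69, 9.53 and 10.05 FPKM with the label AAV-PDGF-D, against 7.402, 8.83 and 7.88 FPKM with the label AAV-GFP. One library of each label overlapped the other group, and the CDK2 fold change of 1.17 (95% interval 1.01 to 1.36) had an adjusted p of 0.12 from limma. CDK2 did pass the adjusted p without AAV-PDGF-D replicate 1, without AAV-GFP replicate 2 and with a filter at a mean of 1 FPKM.

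CDK6 was the lesser of the D cyclin kinases in every library. Its share of the summed CDK4 and CDK6 FPKM was 34.2%, 35.2% and 36.4% with the label AAV-PDGF-D and 32.0%, 33.4% and 27.1% with the label AAV-GFP. The shares did not overlap and differed by 4.41 percentage points (p = 0.1, two-sided exact permutation test, the smallest it can give). Without AAV-GFP replicate 3, the library with the lowest share, the difference was 2.53 percentage points.

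**Figure D2:**
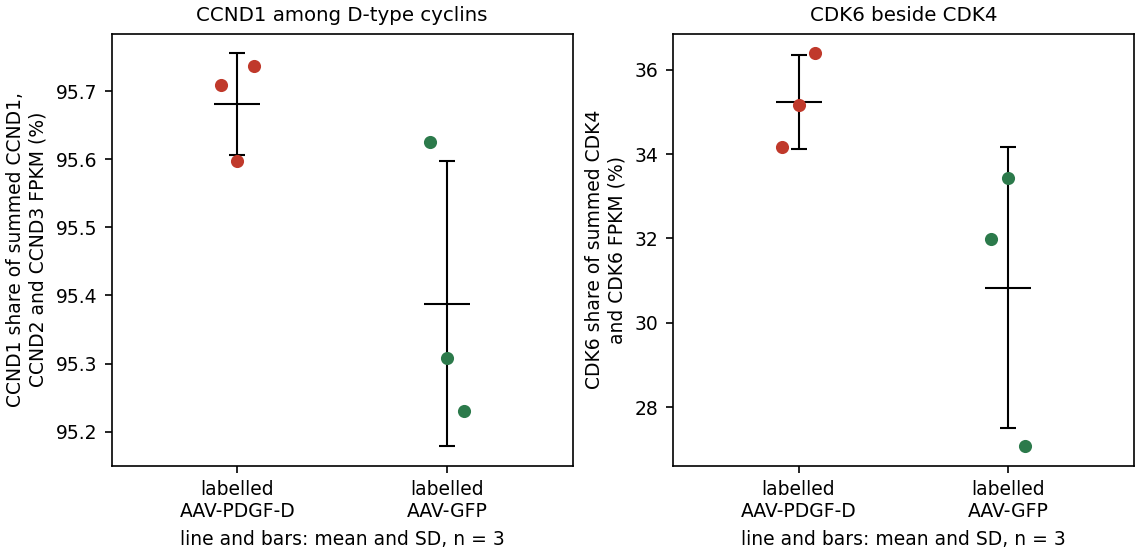
The CCND1 share of the summed D cyclin FPKM (left panel) and the CDK6 share of the summed CDK4 and CDK6 FPKM (right panel) in percent, one point per library, with the mean and SD of each label as line and bars. Axes do not start at 0. The CCND1 shares overlap between labels, and the CDK6 shares do not, with 1 library labelled AAV-GFP well below the rest.

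RB1, the brake that the D cyclin kinases release, was at 15.9, 16.6 and 18.3 FPKM with the label AAV-PDGF-D, against 16.2, 16.1 and 14.3 FPKM with the label AAV-GFP. The groups overlapped, and the RB1 fold change was 1.09 (95% interval 0.964 to 1.23, adjusted p = 0.296 from limma). E2F1, which RB1 holds in check and which is itself an E2F target, was at 2.72, 2.51 and 2.31 FPKM with the label AAV-PDGF-D, against 1.65, 1.41 and 1.33 FPKM with the label AAV-GFP. The lowest library labelled AAV-PDGF-D was still well above the highest labelled AAV-GFP. E2F1 averaged 2.51 ± 0.201 FPKM with the label AAV-PDGF-D and 1.46 ± 0.165 FPKM with the label AAV-GFP (SD, n = 3 each). Its log2 fold change was 0.74 with a standard error of 0.14 (limma, adjusted p = 0.0097). E2F1 was the least abundant of the 9 genes, and the added 0.1 FPKM shrinks the fold change of such low rows. With a pseudocount of 1 FPKM the E2F1 log2 fold change was 0.51, below the 1.5-fold threshold, with an adjusted p of 0.0085 from limma. The adjusted p of E2F1 ran from 0.0085 to 0.048 over 16 other settings.

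MYC was abundant and level. It was at 72.6, 83.5 and 77.9 FPKM with the label AAV-PDGF-D, against 75.1, 81.6 and 77.9 FPKM with the label AAV-GFP. The ranges of the labels overlapped almost fully, and the 95% interval of the MYC fold change was 0.905 to 1.10 (adjusted p = 0.969 from limma).

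**Figure D3:**
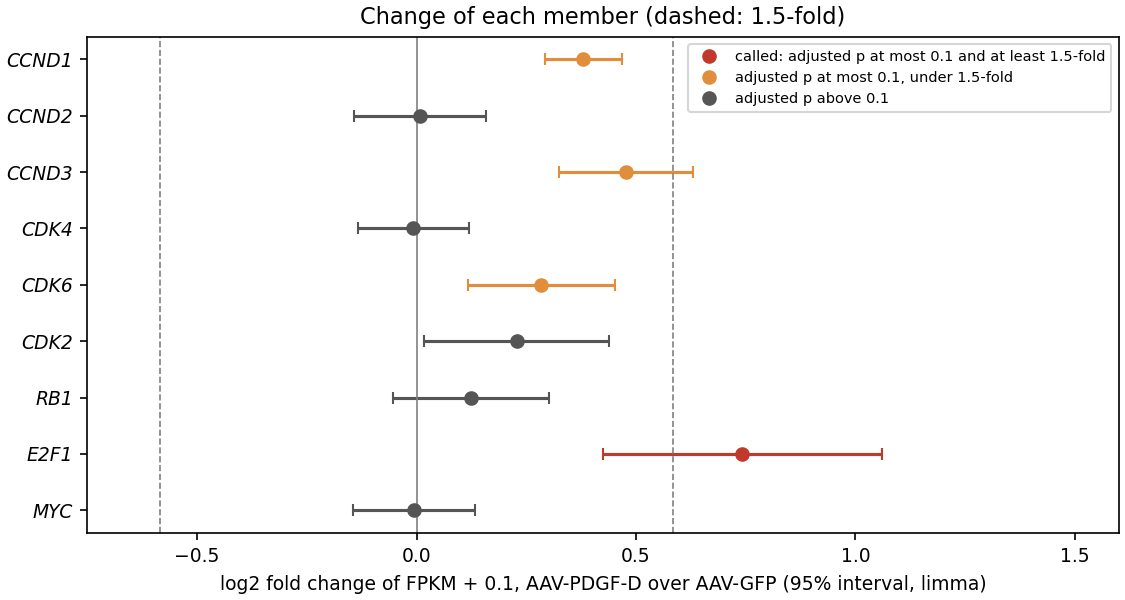
The log2 fold change of FPKM + 0.1, AAV-PDGF-D over AAV-GFP, for each gene, with its 95% interval from limma. Dashed lines mark 1.5-fold. E2F1 (0.74) is the only estimate beyond them, CCND1, CCND3, CDK6 and CDK2 lie above 0 with intervals clear of it, and the intervals of CCND2, CDK4, RB1 and MYC include 0.

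The levels of the 9 genes spanned more than 2 orders of magnitude. By the mean over 6 libraries the order was CCND1 (507 FPKM), MYC (78.1 FPKM), CDK4 (75.1 FPKM), CDK6 (37.1 FPKM), RB1 (16.2 FPKM), CCND3 (13.7 FPKM), CCND2 (9.86 FPKM), CDK2 (8.73 FPKM) and E2F1 (1.99 FPKM). CCND1 ranked 142nd of 16191 rows, at the percentile 99.1 of the table, and E2F1 lay at the percentile 35.1. MYC and CDK4 overlapped in both groups and cannot be ordered. RB1 and CCND3, and also CCND2 and CDK2, overlapped in the libraries labelled AAV-PDGF-D but not in those labelled AAV-GFP. All other neighbours in this order were apart in both groups.

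Other genes of the same pathway were taken from 7 lists. These lists were written with earlier results of these data known, so their counts beside all rows describe them and are not tests. Among 14 core genes of the passage from G1 to S phase with a mean of at least 1 FPKM, 2 rose and 0 fell, with a median log2 fold change of 0.22. By limma, 8 were higher and 0 lower at the adjusted p alone, beside 20.9% and 11.7% of all rows, and 9 were higher and 0 lower at an unadjusted p under 0.05, beside 24.5% and 14.2%. The 2 calls stand beside 2.01% of all rows called higher. CCNE2, a cyclin E that activates CDK2, was at 1.22, 1.93 and 1.66 FPKM with the label AAV-PDGF-D, against 0.764, 0.585 and 0.550 FPKM with the label AAV-GFP. Its groups lay apart, by 2.30-fold (95% interval 1.63 to 3.25, adjusted p = 0.00864 from limma). CDC25A, the phosphatase that removes inhibitory phosphates from CDK2, was at 3.42, 3.31 and 4.33 FPKM with the label AAV-PDGF-D, against 2.15, 1.96 and 2.11 FPKM with the label AAV-GFP. The CDC25A log2 fold change was 0.79 (adjusted p = 0.00677 from limma). CCNH and CDK7, parts of the kinase that activates other CDKs and the most abundant genes of this list, were not called, at log2 fold changes of 0.29 and 0.07.

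E2F target genes for S phase were mostly higher. Of 22 with a mean of at least 1 FPKM, out of 25 listed, 8 rose and 0 fell, beside 2.01% of all rows called higher. At the adjusted p alone 17 were higher and 1 lower, beside 20.9% and 11.7% of all rows, and the counts were the same at an unadjusted p under 0.05, beside 24.5% and 14.2%. The list of E2F targets shares CCNE1, CCNE2, CDC25A, RBL1, E2F2, E2F7 and E2F8 with the core genes above. Their median log2 fold change was 0.38, beside 0.04 for all rows. MYBL2, a transcription factor of dividing cells, was at 1.53, 1.61 and 1.75 FPKM with the label AAV-PDGF-D, against 0.600, 0.501 and 0.411 FPKM with the label AAV-GFP (log2 fold change 1.53, adjusted p = 0.00254 from limma). RRM2, a subunit of the enzyme that makes deoxynucleotides, was at 3.14, 3.72 and 3.16 FPKM with the label AAV-PDGF-D, against 1.30, 1.68 and 0.722 FPKM with the label AAV-GFP (log2 fold change 1.43, adjusted p = 0.00906 from limma). In each of these genes every library labelled AAV-PDGF-D was above every library labelled AAV-GFP. CDC6, which loads the replicative helicase onto DNA, was at 5.38, 6.74 and 5.37 FPKM with the label AAV-PDGF-D, against 2.34, 2.76 and 2.14 FPKM with the label AAV-GFP (log2 fold change 1.24, adjusted p = 0.00173 from limma). CCNE2, above, was the fourth of the genes with the largest change. The most abundant of the list, SLBP, which binds histone messenger RNA, and PCNA, the sliding clamp of DNA polymerase, were not called, at log2 fold changes of 0.12 and 0.37. The count of 8 was 5 with a pseudocount of 1 FPKM and 5 without AAV-PDGF-D replicate 2. It was 7 without both libraries with hemoglobin.

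Changes of MYC target genes were to the higher side, and those of the MYC network lay on both sides. Of 21 MYC target genes with a row, 1 rose and 0 fell, beside 2.01% of all rows called higher, and the median log2 fold change was 0.25. At the adjusted p alone 14 were higher and 0 lower, beside 20.9% and 11.7% of all rows, with the same counts at an unadjusted p under 0.05, beside 24.5% and 14.2%. LDHA, which turns pyruvate into lactate, was at 129, 137 and 125 FPKM with the label AAV-PDGF-D, against 74.1, 78.6 and 71.2 FPKM with the label AAV-GFP (log2 fold change 0.80, adjusted p = 0.000341 from limma). The groups were far apart. NPM1, a nucleolar chaperone, and EIF4A1, a helicase of translation initiation, were the most abundant targets, with log2 fold changes of 0.07 and 0.01. Of 12 genes of the MYC network, limma called 0 in either direction, 2 were higher and 4 lower at the adjusted p alone, beside 20.9% and 11.7% of all rows, and the median log2 fold change was -0.07. At an unadjusted p under 0.05 the counts were again 2 and 4, beside 24.5% and 14.2%. MAX, the partner that MYC needs to bind DNA, was at 31.7 ± 2.35 FPKM with the label AAV-PDGF-D and 32.8 ± 2.89 FPKM with the label AAV-GFP (SD, n = 3 each, log2 fold change -0.05, adjusted p = 0.692 from limma). MXD4, which competes with MYC for MAX, had a log2 fold change of -0.17. The 4 lower at the adjusted p were MYCN, MXI1, MNT and MXD4, and the 2 higher were MXD1 and MLX. MYCN, the relative of MYC known from neural tumours, was singled out after its values were seen. It averaged 3.14 ± 0.327 FPKM with the label AAV-PDGF-D and 4.74 ± 0.413 FPKM with the label AAV-GFP (SD, n = 3 each), a log2 fold change of -0.58 just short of a call (adjusted p = 0.0127 from limma).

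Of 6 inhibitors of the G1 kinases with a mean of at least 1 FPKM, 1 fell and 0 rose. All rows were called lower in 1.75% and higher in 2.01%. The median log2 fold change of the inhibitors was -0.09. At the adjusted p alone 1 was higher (CDKN1A) and 2 lower (CDKN1C and CDKN2B), beside 20.9% and 11.7% of all rows. The counts were the same at an unadjusted p under 0.05, beside 24.5% and 14.2%. CDKN1C, an inhibitor of the CIP/KIP family that restrains cyclin E kinases, was at 21.0, 22.8 and 22.3 FPKM with the label AAV-PDGF-D, against 41.0, 35.8 and 46.0 FPKM with the label AAV-GFP. The highest library labelled AAV-PDGF-D lay far below the lowest labelled AAV-GFP, and the log2 fold change was -0.88 (standard error 0.09, adjusted p = 0.00136 from limma). CDKN2A, whose products include an inhibitor of CDK4 and CDK6, was the most abundant of these genes and level. Its row, which does not separate these products, was at 144 ± 3.53 FPKM with the label AAV-PDGF-D and 144 ± 20.5 FPKM with the label AAV-GFP (SD, n = 3 each). CDKN1A, a p53 target, was at 125 ± 6.94 FPKM with the label AAV-PDGF-D and 101 ± 9.22 FPKM with the label AAV-GFP (SD, n = 3 each). Its log2 fold change of 0.31 (adjusted p = 0.0223 from limma) was below the 1.5-fold threshold. Of 10 genes for the turnover of D cyclins, cyclin E and MYC with a row, limma called 0, and the median log2 fold change was 0.05. At the adjusted p alone 2 were higher and 2 lower, beside 20.9% and 11.7% of all rows, and at an unadjusted p under 0.05 there were 3 higher and 2 lower, beside 24.5% and 14.2%, so the share higher was near that of all rows. The 2 higher at the adjusted p were CKS1B and SKP2, at log2 fold changes of 0.44 and 0.25. The 2 lower were AMBRA1 and FBXO31, at -0.24 and -0.21. SKP1 and CUL1, shared parts of a ubiquitin ligase and the most abundant of the 10, had log2 fold changes of 0.01 and 0.13.

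**Figure D4:**
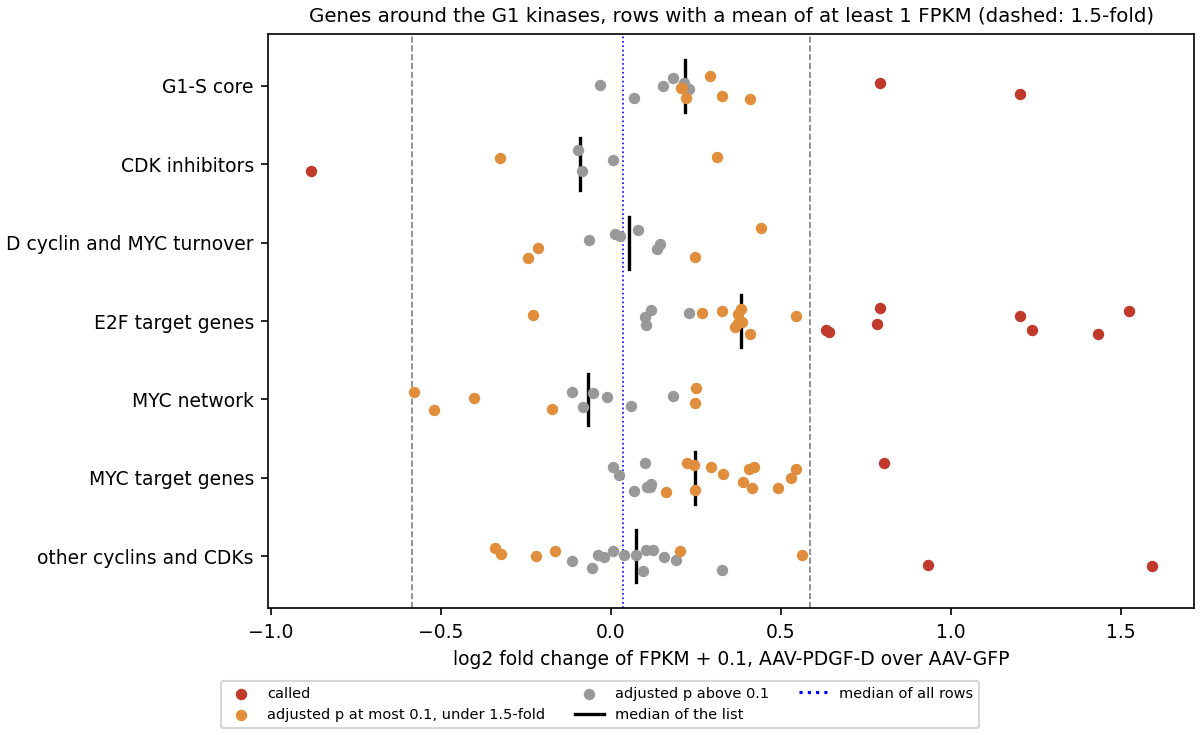
The log2 fold change of FPKM + 0.1, AAV-PDGF-D over AAV-GFP, of each gene in 7 lists with a mean of at least 1 FPKM, with the median of each list (black) and of all rows (blue dots). Red points were called, orange points passed the adjusted p alone. The E2F target genes have the highest median of the 7 lists, 0.38, and CDKN1C among the CDK inhibitors is the only gene called lower.

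The summed markers of pigment epithelium, of fibroblasts and mural cells, of leukocytes and of endothelium each differed between the labels without overlap. Such separation was common among single rows: of the 11444 that could be called, 27.3% lay wholly above with the label AAV-PDGF-D and 16.4% wholly below. In each list a few abundant genes made up most of the sum. For leukocytes this was CD68 alone and for endothelium KDR alone. Whether these cell types themselves differed was not tested. In bulk RNA fewer cells of a type and less RNA per cell cannot be told apart. Of 12 pigment epithelium markers, 8 reached 1 FPKM in each library. The summed level of the list was 2276 to 2388 FPKM with the label AAV-PDGF-D and 2080 to 2196 FPKM with the label AAV-GFP, carried by keratins KRT8 and KRT18, while RPE65, a defining enzyme of this epithelium, had a mean of 0.869 FPKM. Among these markers 2 fell, PMEL and TYRP1, genes of pigment synthesis, and 0 rose. All rows were called lower in 1.75% and higher in 2.01%. At the adjusted p alone 3 were lower, with OTX2 as the third, and 1 higher, KRT8, beside 11.7% and 20.9% of all rows. OTX2, a transcription factor of this epithelium, had a log2 fold change of -0.30 (adjusted p = 0.0434 from limma). KRT8 had a log2 fold change of 0.19 (adjusted p = 0.0212 from limma). The median log2 fold change of the 9 markers with a mean of at least 1 FPKM was -0.0048, so the higher sum was not shared by most of the list. Of 7 fibroblast and mural cell markers, 7 reached 1 FPKM in each library, with a sum of 1916 to 2021 FPKM with the label AAV-PDGF-D and 2053 to 2261 FPKM with the label AAV-GFP. TAGLN, with a mean of 1495 FPKM, made up most of this sum and did not pass (adjusted p = 0.239 from limma). Of the 7, 0 were called. At the adjusted p alone 4 were lower (COL1A2, PDGFRB, ACTA2 and DCN) and 0 higher, beside 11.7% and 20.9% of all rows. RGS5 had a log2 fold change of 0.10. Of 6 leukocyte markers with a row, only CD68 reached 1 FPKM in each library, and PTPRC had a mean of 0.0315 FPKM. Their sum was 21.3 to 22.6 FPKM with the label AAV-PDGF-D and 18.5 to 20.8 FPKM with the label AAV-GFP. The leukocyte sum was nearly all CD68, while CSF1R, a receptor of macrophages, fell, with a mean of 0.697 FPKM with the label AAV-PDGF-D and 1.46 FPKM with the label AAV-GFP (log2 fold change -0.95, adjusted p = 0.0230 from limma). Of 6 endothelial markers, only KDR reached 1 FPKM in each library. The sum of these 6 was 8.81 to 9.70 FPKM with the label AAV-PDGF-D and 10.6 to 10.9 FPKM with the label AAV-GFP. The endothelial sum was nearly all KDR. PECAM1 and VWF had means of 0.167 and 0.182 FPKM, and CDH5 and TEK were too low to be tested. The sum of the hemoglobin genes HBA1, HBA2 and HBB was 422 FPKM in AAV-PDGF-D replicate 3, 340.3 FPKM in AAV-GFP replicate 1 and no more than 0.319 FPKM elsewhere. Without these 2 libraries, E2F1 was still called and CCND1 and CCND3 still passed the adjusted p. The part of the other cell types in the changes of the 9 genes was not tested.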

How the data were processed

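The deposited table holds FPKM that the authors computed for each gene and library. Per the methods and the submitters' processing notes, the tools were STAR 2.4.2a and RSEM 1.2.29 with the mouse build mm10. Neither the annotation behind the human rows nor the strand setting is given in the sources used here, and the depth is unknown. FPKM are not counts, so no count model was run.

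Log2(FPKM + 0.1) was fitted with limma 3.58.1 in R 4.3.3 with a variance trend, for the 13821 rows whose mean reached 0.1 FPKM, with p-values adjusted over these rows by the Benjamini-Hochberg method. Calls used the thresholds of the study: adjusted p of at most 0.1, at least 1.5-fold, mean of at least 1 FPKM. Shares were compared with exact permutation tests. The fit was also run on simulated data, and no outcome of that run is given or used here. The genes and lists were chosen with earlier results of these data known. Named from each list were its called genes, up to 4 with the largest change, and the 2 most abundant. Alternatives changed the pseudocount, filter, scaling, variance model, thresholds, replicate block and libraries. A run without both libraries with hemoglobin was chosen after seeing the data. A few listed genes are not analysed here. No sequence of the human genes is shown.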

Additional observations from a re-analysis of the deposited data

How the results depend on the processing

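Against 1 of the 9 genes called higher, a pseudocount of 1 FPKM gave 0 and no fold threshold gave 4, and every other setting gave 1. None of the settings called any of the 9 genes lower. Over all rows, 230 were called higher and 200 lower, with 148 and 110 at a pseudocount of 1 FPKM and 2396 and 1341 without a fold threshold. TPM scaling gave 323 lower. Median-of-ratios scaling gave 193 higher and 252 lower, so that 43.4% of calls were higher against 53.5%. Runs with 1 library fewer called between 213 and 271 rows higher, and between 140 and 232 lower. The causes of these moves were not tested. The sign of small changes was not stable. For CCND2, with a log2 fold change of 0.00771, it turned with TPM scaling (-0.0231), median-of-ratios scaling (-0.0293), quantile normalization (-0.0223) and without both libraries with hemoglobin (-0.0330). With 1 library left out, CCND2 ran from -0.0198 to 0.0286, CDK4 from -0.0352 to 0.0485 and MYC from -0.0556 to 0.0458. The difference in the CCND1 share ran from 0.214 to 0.412 and that in the CDK6 share from 2.53 to 5.71 percentage points with 1 library left out. With the replicate number as a block, 234 rows were called higher and 199 lower, and the same 4 genes passed the adjusted p. The differences in share cannot move with this block, because the mean of paired differences equals the difference of the group means. Deviations of same-numbered libraries correlated at -0.10, 0.01 and -0.07. What the replicate number stands for is not stated, and these values cannot show whether same-numbered libraries shared a batch.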

Other observations

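Of 21 other cyclins and cyclin-dependent kinases with a row, limma called 2 higher and 0 lower with the label AAV-PDGF-D, beside 2.01% and 1.75% of all rows. At the adjusted p alone 4 were higher and 4 lower, beside 20.9% and 11.7% of all rows, and the counts were the same at an unadjusted p under 0.05, beside 24.5% and 14.2%, so the share higher was near that of all rows. Their median log2 fold change was 0.07. CCNB1, the cyclin of mitosis, was at 12.6, 15.3 and 12.2 FPKM with the label AAV-PDGF-D, against 6.80, 7.21 and 6.72 FPKM with the label AAV-GFP (log2 fold change 0.93, adjusted p = 0.00145 from limma). CDK1, its kinase partner, was at 2.85, 2.50 and 2.83 FPKM with the label AAV-PDGF-D, against 0.831, 0.967 and 0.728 FPKM with the label AAV-GFP. The groups lay apart for both genes. CCNG1 and CCNI, the most abundant of the list, were not called, at log2 fold changes of -0.16 and -0.32.

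The rows whose pattern over the 6 libraries was most like that of E2F1 were PCYT2, HSPA4L and BUB1, with mean absolute differences of 0.062, 0.0663 and 0.0738 between centred log2(FPKM + 0.1) profiles. For CCND1 they were DPH3, LIPT1 and COPS6, with differences of 0.0114, 0.0147 and 0.015. With 6 libraries in 2 groups, this likeness rests mainly on the difference between the labels.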
